A study of Homo sapiens with 13 samples.

Results

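The genes followed here across every array are GPC3, EPCAM, DLK1, PROM1, SPINK1, LIN28B, PEG10, SALL4, SPP1 and SOX9, known as markers of fetal liver, of liver progenitor cells and of liver tumours that resemble them. They were chosen by gene symbol, as array rows whose platform annotation gives the symbol alone, and 10 of 10 were found among the 18377 genes tested. EPCAM had 2 such rows, of which the one with the higher mean over 13 arrays was kept, and the other 9 genes had 1 row each.

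RNA came from HepG2, a human hepatoblastoma line, and from HepG2S1, a line made from HepG2 by raising the dose of sorafenib, a kinase inhibitor used against liver cancer, in small steps over months. Each sample was 1 flask, read on 1 Affymetrix whole-transcript array. The groups were HepG2 without sorafenib at 20% O2 (n = 3), HepG2S1 with 6 µM sorafenib at 20% O2 (n = 4), HepG2S1 withdrawn from sorafenib at 20% O2 (n = 3) and HepG2S1 with 6 µM sorafenib at 2% O2 (n = 3), all harvested after 72 h. All 4 groups grew in the same serum-containing medium with insulin and dexamethasone, both of which act on hepatocyte genes. Sorafenib was dissolved in DMSO, and the labels do not say whether drug-free flasks received DMSO or whether HepG2S1 is 1 clone. Cell line and months of selection differ together in every comparison with HepG2 and cannot be told apart. Sorafenib at harvest differs as well, except for the withdrawn HepG2S1 cells, which like HepG2 were without it. For HepG2S1 at 2% O2 against HepG2 oxygen differs too, as HepG2 was read at 20% O2 only, and its share cannot be told apart.

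Oncofetal genes are active in the fetal liver, fall silent in the adult organ and return in many hepatoblastomas and hepatocellular carcinomas, which is why GPC3 is used as a tumour marker in liver pathology. Progenitor markers such as EPCAM, PROM1 and SOX9 label bipotent or biliary-fated cells that can give rise to hepatocytes and bile duct cells. The genes act at different places: GPC3, EPCAM, PROM1 and DLK1 at the cell surface, SPP1 and SPINK1 as secreted proteins, LIN28B on RNA, PEG10 as a protein of retrotransposon origin, and SALL4 and SOX9 on DNA.

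The 3 HepG2 arrays stood apart from the 10 HepG2S1 arrays: across all rows, pairs of a HepG2 and a HepG2S1 array correlated at 0.913 to 0.923, against 0.991 to 0.996 between HepG2S1 groups and 0.995 to 0.998 within a group. Hepatocyte markers marked the same divide, with a mean log2 value over 11 markers of 12.14 to 12.19 per HepG2 array and 6.55 to 6.74 per HepG2S1 array. ALB, APOH, FGB and AHSG were under 5.76 in each HepG2S1 group. That value is the lower quartile of a typical array (the median of the 13 quartiles) and serves below as a mark of dim signal, where differences between arrays can be understated. CPS1 rose and the other 10 markers fell (limma, HepG2S1 with sorafenib at 20% O2 against HepG2). The marker counts here stand against 30.1% of all genes higher and 27.2% lower. Of 9 fibroblast and stellate markers DCN, LUM and RGS5 rose in that comparison and ACTA2 fell, with per-array means of 6.97 to 7.09 in HepG2 and 8.03 to 8.14 in HepG2S1, while COL1A1 and COL1A2 did not pass. DCN, LUM and RGS5 were under 5.76 in HepG2, and PDGFRA in every group. Of 6 cholangiocyte markers KRT7 and MUC1 rose and KRT19 fell, with per-array means of 7.12 to 7.37 in HepG2 and 8.08 to 8.35 in HepG2S1, and CFTR was under 5.76 in every group. Of 8 endothelial and blood markers CD68 rose and PECAM1, CDH5, KDR and CD14 fell, with per-array means of 6.89 to 6.95 in HepG2 and 6.59 to 6.83 in HepG2S1. PTPRC, the marker of blood cells, was under 5.76 in every group, and KDR in each HepG2S1 group. Whether any of these shifts has a part in the values of the 10 genes was not tested.

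Promoter sequence was at hand in the RefSeq table (GRCh38.p14) for 4 of the 10 genes, which are shown for that reason alone. All 4 are among the 9 genes lower in HepG2S1 below. SALL4, the gene that did not pass, has no window, and whether any motif bears on the values was not tested. The 250 bases before the most upstream listed start are given. PROM1 has 4 listed windows and LIN28B 2, and for both genes matches are reported in the most upstream alone. Capitals mark matches on either strand to GTTAATNAT (the HNF1 motif, a liver factor), AACCACA (RUNX), CCAAT (the NF-Y box), ACGTG or GCGTG (the core that HIF binds) and TATAAA (the TATA box). No motif match here overlaps another.
SPP1 (chr4:87975464-87975713, plus strand): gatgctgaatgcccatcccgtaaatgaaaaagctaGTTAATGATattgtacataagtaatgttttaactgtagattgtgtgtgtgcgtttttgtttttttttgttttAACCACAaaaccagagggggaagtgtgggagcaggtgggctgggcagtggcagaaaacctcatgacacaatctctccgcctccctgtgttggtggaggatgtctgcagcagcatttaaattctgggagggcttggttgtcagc
SPINK1 (chr5:147831672-147831921, minus strand): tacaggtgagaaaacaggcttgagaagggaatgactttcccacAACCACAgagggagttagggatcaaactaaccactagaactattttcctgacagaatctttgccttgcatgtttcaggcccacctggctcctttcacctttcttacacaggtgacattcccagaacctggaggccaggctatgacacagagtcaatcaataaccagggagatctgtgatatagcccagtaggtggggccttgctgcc
LIN28B (chr6:104940715-104940964, plus strand): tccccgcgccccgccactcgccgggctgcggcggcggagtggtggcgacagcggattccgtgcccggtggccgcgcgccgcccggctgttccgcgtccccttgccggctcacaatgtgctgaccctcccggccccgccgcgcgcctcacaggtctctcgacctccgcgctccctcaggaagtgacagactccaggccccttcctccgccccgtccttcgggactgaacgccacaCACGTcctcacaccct
PROM1 (chr4:16084024-16084273, minus strand): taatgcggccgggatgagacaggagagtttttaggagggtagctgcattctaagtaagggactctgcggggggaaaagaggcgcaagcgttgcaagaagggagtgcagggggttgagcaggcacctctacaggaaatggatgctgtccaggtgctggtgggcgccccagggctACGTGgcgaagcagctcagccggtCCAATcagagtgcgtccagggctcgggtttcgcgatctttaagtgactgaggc

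The SPP1 window held the HNF1 motif 215 to 207 bases before the start, a motif in 0.723% of the 35116 listed windows of that length, and the RUNX motif 143 to 137 bases before it, which 3.65% of windows held. SPINK1 held a RUNX motif as well, 207 to 201 bases before its start. The HIF core stood once in PROM1, 77 to 73 bases upstream, and once in LIN28B, on the other strand, 16 to 12 bases upstream. That core is common, with 43.2% of windows holding it, as is the CCAAT box of PROM1 (32.0%). TATAAA, in 10.7% of windows, was in none of the 4. These are matches of letters, not measured binding sites.

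The first comparisons addressed how far the resistant line differs from its parent. In HepG2S1 with sorafenib at 20% O2, 9 of the 10 genes were lower than in HepG2 (limma, adjusted p under 0.05) and none was higher, against 27.2% of all genes lower and 30.1% higher. A fall of 2-fold or more was found in 8 of the 10, against 7.31% of all genes, and 9 had all their arrays below all HepG2 arrays, against 26.8%. Their median log2 fold change was -3.94, and that of all 18377 genes 0.01. SALL4 was the gene that did not pass. Less RNA in each cell and fewer cells that make it cannot be told apart in such bulk samples. The 10 genes were listed with earlier results of these data known, so that these shares describe the list and carry no test of their own.

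**Figure D1:**
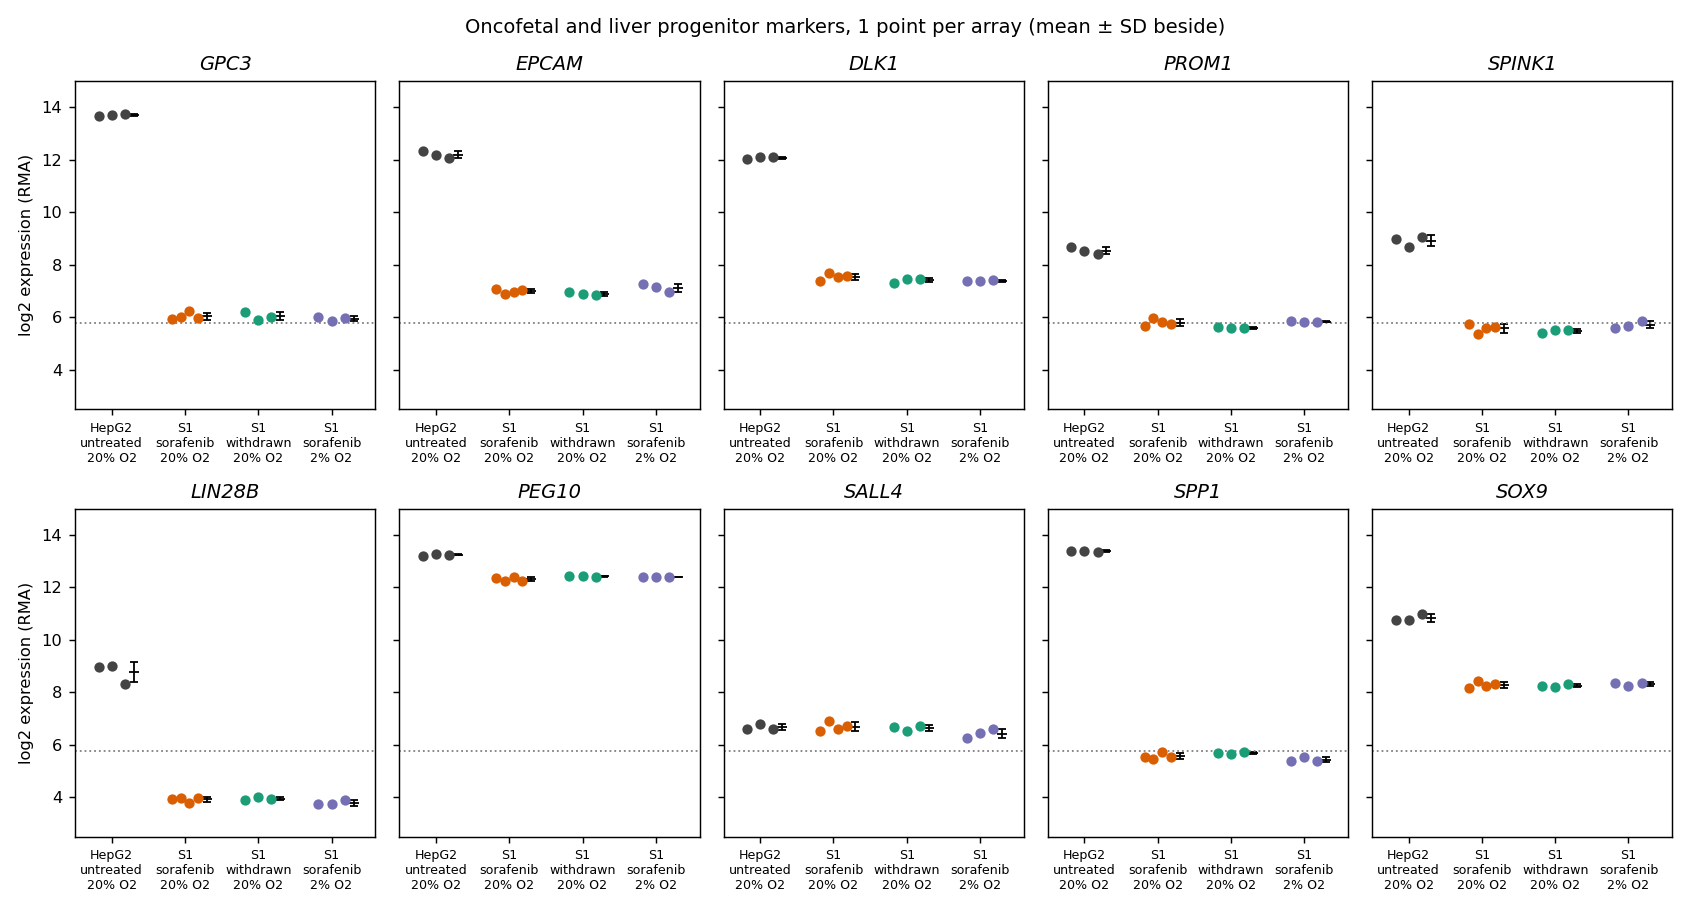
Log2 expression (RMA) of each gene on each of 13 arrays, by group (HepG2 untreated, then HepG2S1, shortened to S1, with sorafenib, withdrawn, and with sorafenib at 2% O2); points are arrays, bars the mean ± SD, and the dotted line the typical lower quartile of an array (5.76). HepG2 lies above every HepG2S1 array for 9 genes and among them for SALL4, and PEG10 has no value under 12.26.

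The cell-surface genes fell steeply. GPC3, glypican-3, a heparan sulfate proteoglycan on the membrane of fetal hepatoblasts, had log2 values of 13.68, 13.71 and 13.74 in HepG2. It lay at 5.92, 6.02, 6.23 and 5.95 in HepG2S1 with sorafenib at 20% O2, at 6.21, 5.90 and 6.00 after withdrawal, and at 6.02, 5.84 and 5.96 at 2% O2. The HepG2 arrays were thus far above all 10 others, which overlapped with each other. The log2 fold change in the drug-treated cells at 20% O2 was -7.68 (95% confidence interval -7.86 to -7.51; limma, adjusted p = 8.32e-19), a 205-fold lower value on the linear scale. The HepG2S1 values of GPC3 lay little above 5.76, so that its fall may be understated.

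EPCAM, an epithelial adhesion molecule of hepatoblasts and bile duct cells, had values of 12.34, 12.17 and 12.05 in HepG2. With sorafenib at 20% O2 it lay at 7.07, 6.89, 6.95 and 7.05, after withdrawal at 6.96, 6.88 and 6.83, and at 2% O2 at 7.25, 7.15 and 6.96. The drop from HepG2 was 36.6-fold (log2 fold change -5.19, interval -5.37 to -5.02; adjusted p = 5.32e-17), and no HepG2S1 array reached the HepG2 range. The other EPCAM row carries the same annotated transcripts and gave lower values in HepG2S1, with means of 5.50 ± 0.57 (SD, n = 4) with sorafenib, 5.44 ± 0.18 (n = 3) after withdrawal and 6.03 ± 0.41 (n = 3) at 2% O2, against 11.79 ± 0.15 (n = 3) in HepG2. Its SD with sorafenib was far wider than the 0.08 of the row that was kept, so that both rows lay lower in HepG2S1 while the size of the difference depends on the row.

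DLK1, a membrane protein related to NOTCH ligands and imprinted so that the paternal copy is used, ranged from 12.03 to 12.11 in HepG2 and from 7.32 to 7.69 over the 10 HepG2S1 arrays. Its log2 fold change was -4.53 (interval -4.67 to -4.39; adjusted p = 2.33e-17). PROM1, the pentaspan membrane protein known as CD133, had values of 8.67, 8.52 and 8.39 in HepG2. It lay at 5.66, 5.98, 5.80 and 5.72 with sorafenib at 20% O2, at 5.62, 5.57 and 5.59 after withdrawal, and at 5.86, 5.81 and 5.83 at 2% O2. Its drop from HepG2 was 6.67-fold (log2 fold change -2.74, interval -2.90 to -2.58; adjusted p = 5.08e-14). All 3 withdrawn arrays and 2 of the 4 drug-treated arrays at 20% O2 lay below 5.76, so that its fall may be understated.

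Both secreted proteins fell as well. SPP1, osteopontin, a matrix phosphoprotein that binds integrins and CD44, had values of 13.39, 13.40 and 13.34 in HepG2. With sorafenib at 20% O2 it lay at 5.52, 5.46, 5.71 and 5.54, after withdrawal at 5.68, 5.64 and 5.71, and at 2% O2 at 5.37, 5.54 and 5.39. All 10 HepG2S1 values were below 5.76. The log2 fold change was -7.82 (interval -7.96 to -7.68; adjusted p = 9.70e-20) and may be understated, as may those of SPINK1 and LIN28B, which were dim as well.

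SPINK1, a secreted inhibitor of trypsin that many liver tumours make, ranged from 8.68 to 9.07 in HepG2 and from 5.35 to 5.87 in HepG2S1, with 9 of those 10 arrays below 5.76. Its log2 fold change was -3.34 (interval -3.55 to -3.12; adjusted p = 1.80e-13).

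LIN28B, an RNA-binding protein that keeps let-7 microRNA precursors from maturing and is a hallmark of fetal growth programs, had values of 8.98, 8.99 and 8.32 in HepG2, the widest SD of any of the 10 genes in any group (0.38). It lay between 3.73 and 4.02 on all 10 HepG2S1 arrays, below 5.76 throughout. The log2 fold change was -4.85 (interval -5.11 to -4.58; adjusted p = 2.18e-14).

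PEG10, a paternally expressed imprinted gene derived from a retrotransposon and often raised in liver cancer, fell least among the 9 genes called. Its values of 13.21, 13.26 and 13.24 in HepG2 stood above 12.36, 12.26, 12.38 and 12.26 with sorafenib at 20% O2, 12.45, 12.42 and 12.41 after withdrawal, and 12.38, 12.40 and 12.40 at 2% O2. The groups did not overlap with HepG2, and the log2 fold change was -0.92 (interval -1.02 to -0.82; adjusted p = 1.34e-10), a 1.89-fold lower value. PEG10 thus kept a high signal in HepG2S1, on a scale whose highest value on any array was 14.45.

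Among the transcription factors SOX9 fell and SALL4 did not pass. SOX9, a factor of bile duct and progenitor cells, ranged from 10.75 to 10.98 in HepG2 and from 8.18 to 8.43 in HepG2S1, for a log2 fold change of -2.53 (interval -2.69 to -2.38; adjusted p = 9.22e-14). It fell 5.80-fold and remained above 5.76 on every array. SALL4, a zinc finger factor of embryonic stem cells and fetal liver, had values of 6.59, 6.79 and 6.62 in HepG2 and of 6.53, 6.90, 6.59 and 6.72 in HepG2S1 with sorafenib at 20% O2. The groups overlapped, and the log2 difference was 0.02 (95% confidence interval -0.19 to 0.23; limma, adjusted p = 0.883). SALL4 lay below the median of every array (7.3 to 7.42), in HepG2 as well, so that a difference may be understated.

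The fall held in the other HepG2S1 groups, which were compared with the same 3 HepG2 arrays. After withdrawal 9 of the 10 genes were lower than in HepG2 and none was higher, against 27.0% of all genes lower and 29.6% higher, and 8 fell by 2-fold or more, against 7.47%. The median was -4.05 against -0.01 over all genes, and 9 had arrays apart from HepG2, against 29.2% of all genes on that side. At 2% O2 again 9 were lower and none higher, against 30.6% of all genes lower and 30.6% higher, and 8 fell by 2-fold or more, against 7.36%. The median was -3.94 against -0.05, and 9 had arrays apart from HepG2, against 32.1%. The 9 genes were those named above in both comparisons. GPC3 stood at -7.67 after withdrawal and -7.77 at 2% O2, SPP1 at -7.70 and -7.94, EPCAM at -5.30 and -5.07, LIN28B at -4.82 and -4.98, and DLK1 at -4.67 and -4.69. SPINK1 stood at -3.44 and -3.20, PROM1 at -2.94 and -2.69, SOX9 at -2.57 and -2.51, and PEG10 at -0.81 and -0.84. No array of either group entered the HepG2 range for any of these 9 genes.

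**Figure D2:**
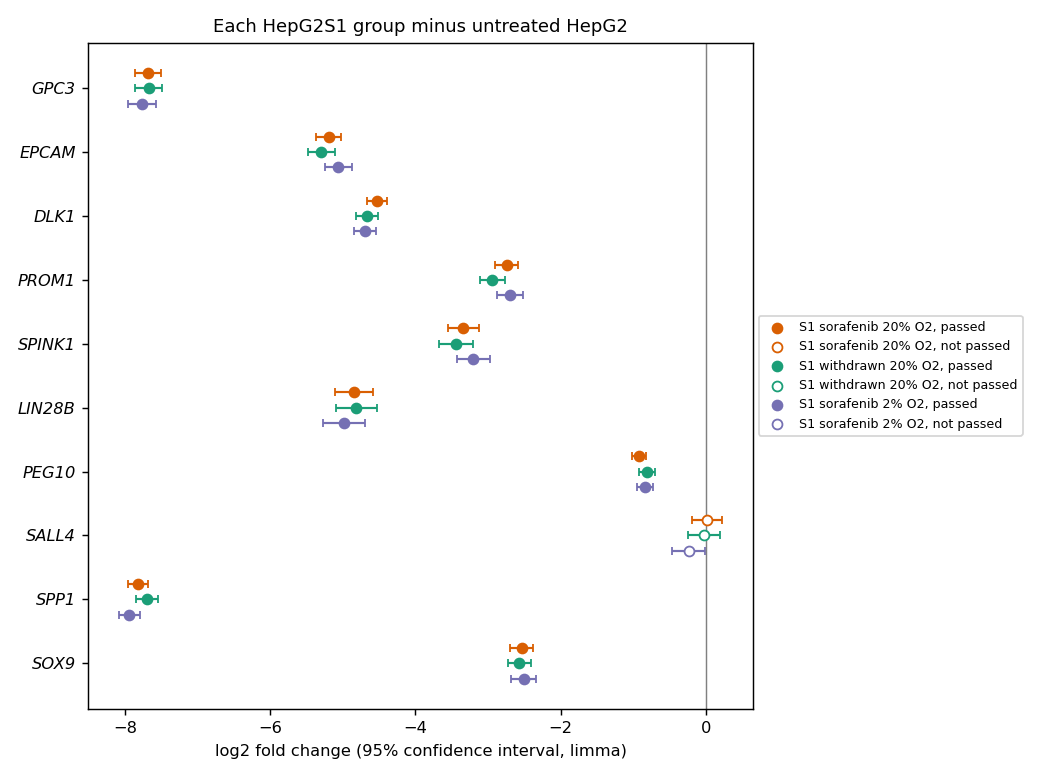
Log2 fold change of each HepG2S1 group minus untreated HepG2 with 95% confidence intervals (limma, 1 fit over 13 arrays); filled points passed an adjusted p of 0.05 and open points did not. The 3 HepG2S1 groups share the same HepG2 arrays; 9 genes lie left of 0 in each, from PEG10 at -0.81 to SPP1 at -7.94, and SALL4 did not pass in any.

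SALL4 at 2% O2, with values of 6.25, 6.44 and 6.60, had a log2 difference of -0.23 from HepG2 (interval -0.46 to -0.01; adjusted p = 0.0638), and after withdrawal, with 6.69, 6.52 and 6.73, of -0.02 (adjusted p = 0.901). The 2% O2 difference from HepG2 passed with 75th percentile scaling (adjusted p = 0.0233), with array weights (0.0402) and without replicate 3 of the 2% O2 group (0.0207).

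The next question was how withdrawal of sorafenib bears on the resistant line itself. None of the 10 genes passed the test (limma), against 10.1% of all genes higher and 7.90% lower after withdrawal. At an unadjusted p under 0.05 there were 2, PROM1 and PEG10. At least the shares of all genes just given pass that looser rule too, so that these 2 do not set the list apart. PROM1 differed by -0.20 (interval -0.36 to -0.04; adjusted p = 0.0883), with all 3 withdrawn arrays below all 4 drug-treated ones. PEG10 differed by 0.11 (interval 0.01 to 0.22; adjusted p = 0.141), with all 3 withdrawn arrays above. Arrays of the groups did not overlap for 16.2% of all genes in the upward and 14.0% in the downward direction, so that 1 gene of 10 each way is near that background.

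The other 8 genes had overlapping arrays in this comparison. For GPC3, EPCAM, DLK1, SALL4 and SOX9 the bounds of the 95% intervals lay between -0.28 (DLK1) and 0.19 (GPC3) on the log2 scale. GPC3, with means of 6.03 under the drug and 6.04 after withdrawal, lay little above 5.76, so that a change may be understated. The same holds for SALL4, which lay below the median of every array. SPINK1 (interval -0.32 to 0.12), LIN28B (-0.24 to 0.30) and SPP1 (-0.02 to 0.26) were under 5.76 on all arrays of both groups, where their intervals do not bound a change in RNA. The PROM1 difference passed with array weights (adjusted p = 0.0179) and without replicate 1 of HepG2S1 with sorafenib at 20% O2 (0.0466), and the PEG10 difference passed with trend and robust moderation (0.0256).

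Low oxygen under the drug was compared with 20% O2 under the drug. None of the 10 genes passed (limma), against 8.99% of all genes higher and 6.17% lower at 2% O2. An unadjusted p under 0.05 was found for 2, a looser rule that at least these shares of all genes pass too. SALL4 differed by -0.25 (interval -0.46 to -0.05; adjusted p = 0.0898) and DLK1 by -0.15 (interval -0.29 to -0.02; adjusted p = 0.122). Arrays of the groups overlapped for all 10 genes, where 13.9% of all genes lay apart with 2% O2 higher and 14.3% with 2% O2 lower. DLK1 lay at 7.38, 7.36 and 7.43 at 2% O2 and at 7.39, 7.69, 7.52 and 7.58 at 20% O2. The SALL4 difference passed with array weights (0.0361) and without replicate 3 of the 2% O2 group (0.0411), and that of DLK1 without replicate 1 of HepG2S1 with sorafenib at 20% O2 (0.0374). EPCAM, at 0.13 (interval -0.04 to 0.30), and SPINK1, at 0.14 (interval -0.08 to 0.35), did not pass. LIN28B and PROM1, whose windows shown above hold the HIF core, were at -0.13 (interval -0.40 to 0.13) and 0.05 (interval -0.12 to 0.21). LIN28B and SPP1 were under 5.76 on all arrays of both groups. SPINK1 was so on all 4 arrays at 20% O2 and 2 of 3 at 2% O2, and PROM1 on 2 of 4 at 20% O2. With such dim signal these intervals do not bound a change in RNA, and a response through the HIF core was not tested.

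**Figure D3:**
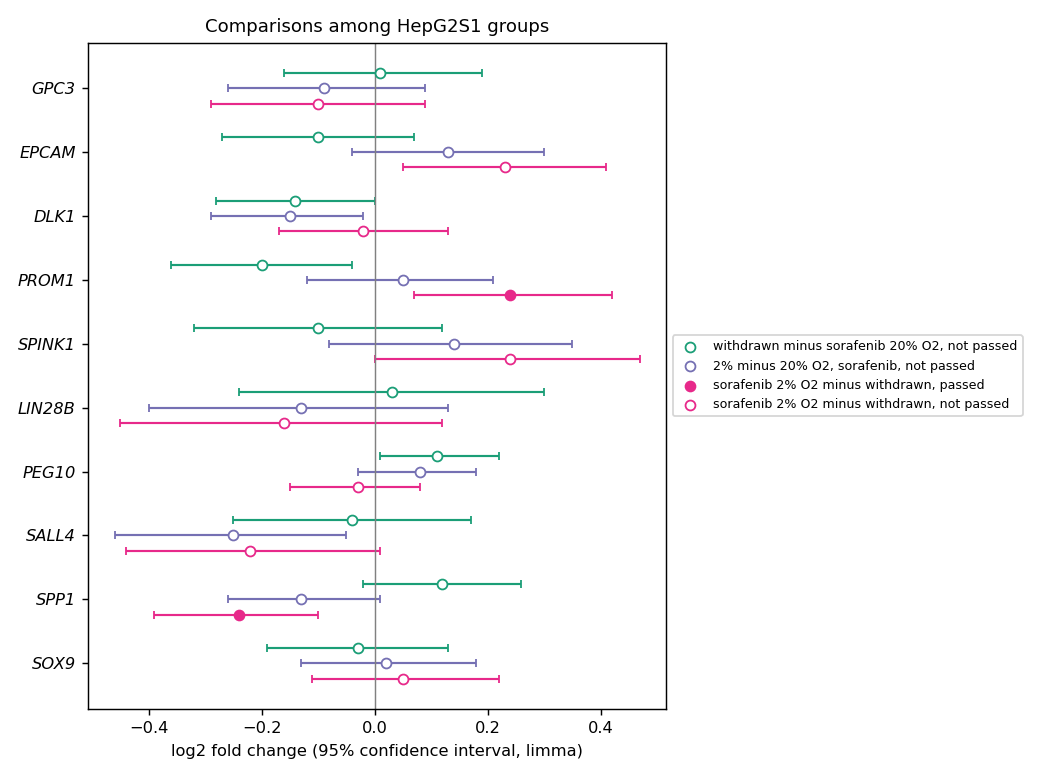
Log2 fold changes among the 3 HepG2S1 groups with 95% confidence intervals (limma); filled points passed an adjusted p of 0.05 and open points did not. All 30 differences lie within 0.25 of 0, and only PROM1 and SPP1, both in 2% O2 minus withdrawn, are filled.

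Set against each other, HepG2S1 cells with sorafenib at 2% O2 and withdrawn cells at 20% O2 gave calls for PROM1 and SPP1 alone. These groups differ in both drug and oxygen. PROM1 was higher at 2% O2 by 0.24 (interval 0.07 to 0.42; limma, adjusted p = 0.0481) and SPP1 lower by 0.24 (log2 fold change -0.24, interval -0.39 to -0.10; adjusted p = 0.0204), each with arrays that did not overlap. That is 1 gene of 10 in each direction, near the shares over all genes, 10.8% higher and 7.73% lower. Both differences were 1.18-fold. Arrays also lay apart for SPINK1, at 0.24 (interval 0.00 to 0.47; limma, adjusted p = 0.163), and for LIN28B (-0.16) and PEG10 (-0.03), none of which passed. That makes 2 genes of 10 apart with 2% O2 higher and 3 with 2% O2 lower, against 18.8% and 19.2% of all genes.

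The PROM1 call was lost with trend and robust moderation (adjusted p = 0.0599), with 75th percentile scaling (0.101) and without any 1 of the 3 withdrawn or 3 low-oxygen replicates (0.0873 to 0.133). The SPP1 call was lost with repeated quantile normalization (0.0557), without replicate 1 or 3 of the withdrawn group (0.0608 and 0.0734) and without replicate 1 or 3 of the 2% O2 group (0.0929 and 0.0637). SPP1 lay below 5.76 on every array of both groups, and PROM1 on all withdrawn arrays. EPCAM, at 0.23 (interval 0.05 to 0.41; adjusted p = 0.0785), passed with array weights (0.0095) and without replicate 3 of the 2% O2 group (0.0227).

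The order of the groups was thus the same at its top for 9 genes and unsettled below it. HepG2 came first and the 3 HepG2S1 groups followed without a called difference between neighbours. For PROM1 the order was HepG2, 2% O2, sorafenib at 20% O2, withdrawn, and for SPP1 HepG2, withdrawn, sorafenib at 20% O2, 2% O2, in each case with a called difference only between the ends of the HepG2S1 part. Both calls involve dim signal and were lost under several of the alternatives given above. For EPCAM, SPINK1 and SOX9 it was HepG2, 2% O2, sorafenib at 20% O2, withdrawn, and for PEG10 HepG2, withdrawn, 2% O2, sorafenib at 20% O2. For GPC3 and LIN28B it was HepG2, withdrawn, sorafenib at 20% O2, 2% O2, and for DLK1 HepG2, sorafenib at 20% O2, withdrawn, 2% O2. SALL4 ran from sorafenib at 20% O2 (6.69 ± 0.17, SD, n = 4) over HepG2 (6.67 ± 0.11, n = 3) and withdrawn cells (6.65 ± 0.11, n = 3) to 2% O2 (6.43 ± 0.17, n = 3), with no called difference between any of them. Over the 10 HepG2S1 arrays the values of a gene spanned between 0.19 (PEG10) and 0.65 (SALL4) on the log2 scale.

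Genes of similar profile were sought as the smallest root-mean-square difference over 13 arrays, after each gene was centred on its own mean. GPC3 was nearest to ALB (0.11) and SPP1 (0.12), and SPP1 to ITIH2, an inter-alpha-trypsin inhibitor chain (0.11), and GPC3. DLK1 was nearest to MERTK, a receptor kinase (0.09), and NOTUM, a WNT deacylase (0.10), EPCAM to ENPP3 and DIO1 (0.12 each), and LIN28B to FMO5 and MAN1A1 (0.16 each). PROM1 was nearest to KREMEN1 (0.09) and SLC17A2 (0.10), SPINK1 to GRK3 (0.14) and IGSF1 (0.15), SOX9 to TESC (0.07) and FGFR1 (0.08), PEG10 to DCTN5 (0.04) and NCOA1 (0.05), and SALL4 to GNRH2 (0.05) and GP6 (0.06). HepG2 and HepG2S1 differ far more in 9 of these genes than the HepG2S1 groups do among themselves, so the measure mainly finds genes with a step of like height.

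Other genes of the same programs did not fall as a block. The counts in this comparison stand against 27.2% of all genes lower and 30.1% higher. Of 12 measured oncofetal genes outside the 10, 6 fell and 4 rose in HepG2S1 with sorafenib at 20% O2 against HepG2, with a median log2 fold change of -0.15 against 0.01 for all genes. AFP, the fetal serum protein, changed by -8.65 ± 0.08 (SE), and IGF2BP1, an RNA-binding protein of the fetal liver, by -2.17 ± 0.06, while TSPAN8, a tetraspanin, rose by 3.97 ± 0.09 and PLAC1, a placental gene, by 1.28 ± 0.08. IGF2 and HMGA2 had no row with 1 symbol and are not analysed here. Of 15 liver progenitor and biliary genes 5 rose and 5 fell, with a median of 0.09. LGR5, a receptor of R-spondins on stem cells, was at -6.51 and the biliary keratin KRT19 at -4.22, but KRT7, the other biliary keratin, at 5.90, CD44, a hyaluronan receptor, at 4.23, MUC1, a mucin, at 3.68 and CD24, a surface glycoprotein, at 0.32. EPCAM and KRT19 thus fell in the same RNA samples in which KRT7, CD44 and CD24 rose.

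The relatives of single genes were as mixed. Among 6 relatives of GPC3 and PROM1, GPC6 fell by 5.40 on the log2 scale and GPC5 rose by 1.53, with GPC4 also lower, GPC1 higher (0.73) and 2 not passing. Of 6 SALL and pluripotency factors, SALL1 changed by -1.57 ± 0.12 and SALL2 also fell, KLF4 rose by 1.74 and MYC by 0.30, and SOX2 and SALL3 did not pass. Of 9 relatives and targets of SOX9, 4 fell and none rose, with SOX5 at -3.05 and COL2A1, the cartilage collagen, at -0.52. Of 10 osteopontin receptors 3 rose, CD44 and ITGA5 (3.78) among them, and 3 fell, the integrin chain ITGAV among them.

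Around LIN28B, 6 of 13 let-7 targets and processing genes fell and 5 rose, with a median of -0.02. IGF2BP2 was at -2.50 and CCND2, cyclin D2, at -2.44, and CDC25A, a cell cycle phosphatase, at 0.47. Mature let-7 was not among the measurements used. Around the imprinted genes, 5 of 18 rose and 5 fell, with a median of 0.06. SGCE, which shares its divergent promoter region with PEG10, rose by 0.35 ± 0.06 (adjusted p = 0.000131) where PEG10 fell by 0.92. MEG3, the maternally expressed RNA next to DLK1, was at 0.14 ± 0.09 (adjusted p = 0.214) where DLK1 fell by 4.53. The mean of MEG3 in HepG2 was only 6.82, against 12.08 for DLK1, so that a fall of MEG3 may go unseen. PON3, a paraoxonase in the region of PEG10, was at -5.39 and PLAGL1, a zinc finger factor, at 1.70. Of 9 NOTCH pathway genes, the family DLK1 is related to, 5 rose and 2 fell, with JAG1 at -1.94 and HES1 at -1.39, and a median of 0.43.

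**Figure D4:**
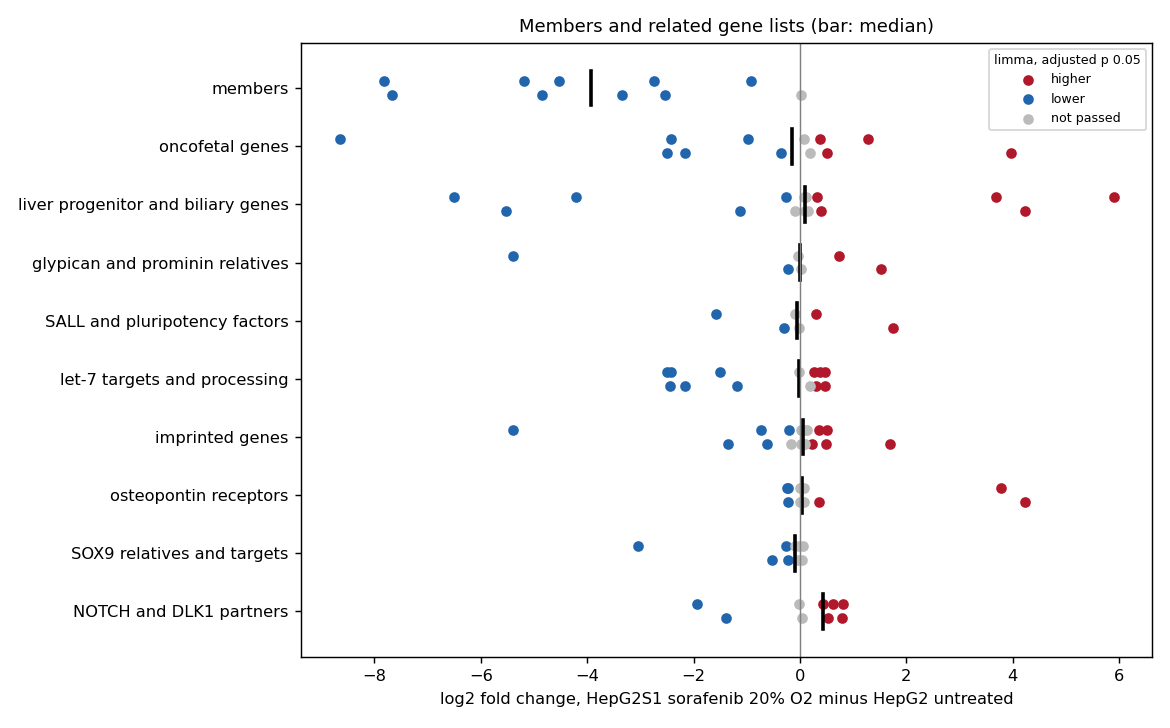
Log2 fold change, HepG2S1 with sorafenib at 20% O2 minus untreated HepG2, of the 10 genes (top row, members) and of 9 lists of related genes; each point is a gene, coloured by its limma call, and the bar is the list's median. The 10 genes lie mostly far to the left, with a median of -3.94, and the medians of the other lists lie between -0.15 and 0.43.

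Within HepG2S1 some of these related genes passed the test. The counts after withdrawal stand against 10.1% of all genes higher and 7.90% lower. After withdrawal 3 of the 12 other oncofetal genes rose, DKK1, a WNT inhibitor, by 0.72 ± 0.07 and IGF2BP1 by 0.28 ± 0.06 among them, and PLAC1 fell (-0.25 ± 0.08). Of the 15 progenitor and biliary genes 5 rose and none fell, MUC1 by 0.78 ± 0.11, KRT19 by 0.40 ± 0.08 and CD24 by 0.28 ± 0.09 among them. LGR5, also among the 5, was under 5.76 in both groups. Among markers of other cell types, DCN (0.82) and LUM (0.73) rose and ACTA2 (-0.35) and CD68 (-0.55) fell in the same comparison, and their part in these counts was not tested. Of the 13 let-7 targets and processing genes 3 rose, CDC25A by 0.60 and MYC by 0.20 among them. GPC1 and GPC5 changed by -0.33 and -0.25, PPP1R9A by -0.46 and PLAGL1 by 0.28. JAG1 changed by -0.32, HEY1, a NOTCH target, by 0.33 and ITGA5 by 0.31.

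At 2% O2 against 20% O2 under the drug, HEY1 rose by 1.63 ± 0.08, MUC1 by 1.02 ± 0.11, ITGA5 by 0.92 ± 0.08, PLAGL1 by 0.60 ± 0.08 and PON2 by 0.37. SGCE rose by 0.27 ± 0.06 (adjusted p = 0.00933) while its neighbour PEG10 was at 0.08 (interval -0.03 to 0.18). The falls in these lists were DKK1 (-0.22), ANPEP, NCAM1 (-0.25), GPC2 (-0.25), GPC5, HMGA1 (-0.24), RTL1, COL2A1 (-0.22) and JAG1 (-0.21), and KLF4 rose by 0.32. Of the fibroblast and stellate markers DCN (0.52) and RGS5 (0.37) rose there and PDGFRA (-0.24), under 5.76 in both groups, fell. Their part was not tested. At 2% O2 against withdrawn cells, DKK1 changed by -0.94, CDC25A by -0.59, NCAM1 by -0.39, MYC by -0.25, PLAC1 by 0.37, HEY1 by 1.30, ITGA5 by 0.61, PPP1R9A by 0.39, PLAGL1 by 0.32 and NOTCH3 by 0.28.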

How the data were processed

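Per the submitters' processing notes the deposited log2 values came from RMA, which corrects background, normalizes by quantiles and summarises probes. No version of it is named. No detection call or batch was used, and the 28926 rows ranged from 2.68 to 14.45. The platform annotation gave 1 symbol to 19310 rows, and where a gene had several, that of highest mean was taken, which left 18377 genes. The number of arrays (13) limits the precision.

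All pairs of the 4 groups were compared with limma 3.58.1 in R 4.3.3 (lmFit, then eBayes, on all arrays together), Benjamini-Hochberg adjustment over all genes within a comparison and a threshold of 0.05. Fold changes are the first group minus the second. Nothing says that flasks came from separate cultures, and p-values then reflect only flask-to-flask spread, which may be technical. The 10 genes, the related lists and the marker lists were chosen with earlier results of these data known. Named besides the 10 were up to 2 called genes with the largest change per list and comparison, AFP, KRT19, KRT7, CD24, CD44, SGCE, MEG3 and IGF2 in any case, and the 2 nearest profiles per gene; other list genes are named after their values were seen. 2 genes listed under older and newer symbols (TUT4, TUT7) were counted once. The fit was tested on simulated data. Alternatives covered moderation, samples in the fit, scaling, array weights, a filter at the 33rd percentile, the choice among several rows of a gene, a stricter threshold (0.01) and the omission of single arrays. Plots used matplotlib 3.10.9 (Python 3.11.15).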

Additional observations from a re-analysis of the deposited data

How the results depend on the processing

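Against HepG2, GPC3, EPCAM, DLK1, PROM1, SPINK1, LIN28B, PEG10, SPP1 and SOX9 kept their direction and their call in all 405 values computed under the alternatives. The filter at the 33rd percentile left out PROM1, SPINK1, LIN28B and SALL4, which have no value there. No paired analysis was possible because the flask numbers in the labels are unique and pair no samples. Signals under or near the lower quartile limit what can be said of SPP1, SPINK1, LIN28B, PROM1 and GPC3 within HepG2S1.

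Of all 936 values, 15 lost and 11 gained a call and 26 changed sign, the last all lying between -0.07 and 0.04; the cause was not tested. After withdrawal the count of genes called higher became 1 with trend and robust moderation, and that called lower 1 with array weights. At 2% O2 against 20% O2 the count lower was 1 with array weights. At 2% O2 against withdrawn cells the count higher was 0 with trend and robust moderation, 75th percentile scaling, the filter or an adjusted p of 0.01, and 2 with array weights, and the count lower was 0 with repeated quantile normalization or an adjusted p of 0.01. Leaving out 1 array gave 0 to 1 in these counts, lower after withdrawal, lower at 2% O2, and higher and lower at 2% O2 against withdrawn cells.

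Signs turned as follows. With 75th percentile scaling SALL4 was at -0.01 (sorafenib at 20% O2 minus HepG2), GPC3 at -0.01 (withdrawn minus sorafenib), and PROM1 at -0.01 and SOX9 at -0.03 (2% minus 20% O2). With repeated quantile normalization SALL4 was at 0.01 (withdrawn minus HepG2) and SOX9 at -0.00052 (2% minus 20% O2). With array weights SALL4 was at -0.02 (sorafenib at 20% O2 minus HepG2) and GPC3 at -0.05 (withdrawn minus sorafenib). Leaving out 1 array, SALL4 ranged from -0.05 to 0.08 (sorafenib at 20% O2 minus HepG2), from -0.06 to 0.04 (withdrawn minus HepG2) and from -0.09 to 0.03 (withdrawn minus sorafenib). In withdrawn minus sorafenib GPC3 ranged from -0.07 to 0.08, LIN28B from -0.02 to 0.05 and SOX9 from -0.07 to 0.02. SOX9 ranged from -0.01 to 0.07 in 2% minus 20% O2, and DLK1 from -0.06 to 0.01 in 2% O2 minus withdrawn.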
